A study of Mus musculus with 12 samples.

Results

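The 300 genes with the widest genomic span were taken from 10582 genes that reached 200 counts in every usable library of mouse embryonic stem cells. Span was read from the deposited values themselves, as the raw count of a gene divided by its FPKM (fragments per kilobase of gene length and per unit of sequencing depth) in 1 wild-type vehicle library. The same 28643 genes were tested throughout, and all 300 genes were among them. Poly(A)-selected RNA was sequenced from E14 cells, an established mouse embryonic stem cell line, grown on gelatin with serum, LIF and the 2i kinase inhibitors PD0325901 and CHIR99021. The groups were WT, p53 KO and Dux KO, each after 1 uM doxorubicin for 6 h or DMSO vehicle for the same time, then drug-free medium for a time not given in the sources used here. Dux is a transcription factor of the embryo's early cleavage stages. By label there were 12 libraries, 2 per group. The p53 KO and Dux KO libraries come from a line 1 and a line 2 of each knockout, so their spread includes differences between lines. Both WT columns carry the name of 1 line and are called a and b. The deposited count column of Dux KO control 2 repeats that of Dux KO doxorubicin 1 and was left out, so 11 libraries were tested and Dux KO control rests on 1 library, assumed to vary like the other groups.

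Very long genes consist almost wholly of intron, and RNA polymerase II needs hours to cross them. Doxorubicin intercalates into DNA and traps topoisomerase II on it as strand breaks, and topoisomerases are known to help transcription along long genes by relieving supercoils. Long genes are also known as sites of chromosome fragility under replication stress, and many of them serve adhesion, the cytoskeleton and synapses.

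Of the 300 genes, 286 are protein-coding and 14 are long noncoding. Their annotated spans ran from 206.8 to 4435 kb with a median of 347 kb, against a median of 23.1 kb over all genes meeting the count minimum. Exons made up a median of 2.51% of the span, in a median of 22 exon blocks, against 19.6% and 9 blocks. Relative span lay within 5% of the annotated span of GENCODE M21 on GRCm38 for 298 of the 300. The length behind the deposited FPKM was therefore the whole span. This ratio does not show which reads were counted. Counts may cover introns as well as exons, and unspliced and spliced RNA cannot be told apart. At the edge of the choice stood Fryl, Bcar3 and 4930452B06Rik with ratios of 5931, 5925 and 5910, and just outside it 1700025G04Rik, Trps1 and Ncoa2 with 5909, 5909 and 5900.

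The genes were not highly expressed per length. In WT control a their median FPKM was 0.111, against 2.36 over all genes meeting the count minimum, and 17 of 300 (5.67%) reached 1 FPKM against 71.3%. Median counts were similar, at 1020 against 1227. A long gene collects many counts at a low density of reads, so within this choice length and a low level per length cannot be told apart. The count minimum used every library, and the span used WT control a. Neither is a finding here.

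Much of what is counted in these spans may belong to other annotated genes, since a nested gene lies inside the outer gene's span. Whether reads of a nested gene were also counted for the outer gene was not tested. The strand setting of the counting is not given in the sources used here, so nested genes on either strand were included. Counts of all overlapping genes amounted to a median of 13.5% of a member's own. For 142 genes this was at most 10%, and these are called genes with their own reads. For 111 genes it was at least 50%, and 47 lay between. These classes rest on position alone and do not cover reads shared with distant genes. Gm20388, the longest at 4435 kb, overlaps 193 genes with counts, and Fgfr2, annotated over 2961 kb, overlaps 64. Counts of the ribosomal protein pseudogene Rps3a3 equalled 97.5% of those of its host Pde4d, a cAMP phosphodiesterase gene. Counts of Gm13461 equalled 85.4% of those of Lrp1b, a lipoprotein receptor gene. Values of such hosts are uncertain, and results are given for all 300 genes and for the 142.

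**Figure D1:**
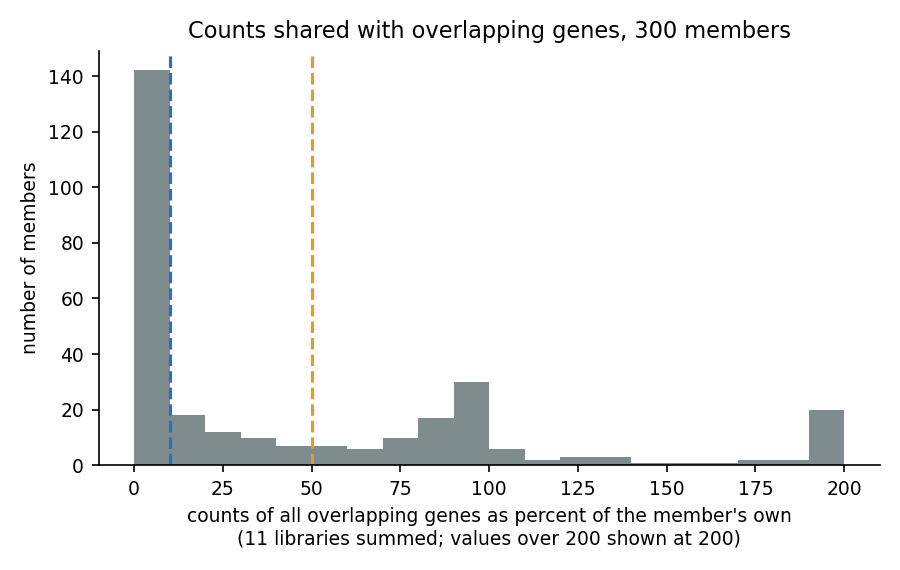
Number of the 300 genes (vertical axis) by the counts of all overlapping genes as a percent of the gene's own counts, summed over 11 libraries (horizontal axis, values over 200 drawn at 200). Dashed lines mark 10% and 50%: 142 genes lie at or under the first line and 111 at or over the second.

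Sequences upstream of Robo1 and Dock9 are shown because these were the pair of genes with no overlapping gene that had the largest difference in response between WT and p53 KO and a RefSeq promoter entry. Each is the 250 bases before the RefSeq start (GRCm38.p6), 5′ to 3′ on the gene's strand. Capitals mark matches to the p53 half-site, the 10-base consensus of which a pair makes a full p53 response element. The half-site is its own reverse complement, so 1 search covers both strands.
Robo1, plus strand, chr16:72662899-72663148: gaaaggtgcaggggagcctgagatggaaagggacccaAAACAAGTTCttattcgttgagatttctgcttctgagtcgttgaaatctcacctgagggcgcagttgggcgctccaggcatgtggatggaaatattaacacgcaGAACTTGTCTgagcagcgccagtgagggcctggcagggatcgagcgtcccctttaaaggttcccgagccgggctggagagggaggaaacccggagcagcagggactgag
Dock9, minus strand, chr14:121698418-121698667: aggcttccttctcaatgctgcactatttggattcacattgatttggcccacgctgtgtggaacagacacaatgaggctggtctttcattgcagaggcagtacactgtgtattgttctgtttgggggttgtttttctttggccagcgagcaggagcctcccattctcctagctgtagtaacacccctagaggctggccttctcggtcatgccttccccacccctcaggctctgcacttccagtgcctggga
The Robo1 stretch held 2 matches and the Dock9 stretch 0. These starts lie 354.8 kb and 99.42 kb inside the annotated spans of Robo1 and Dock9, so other starts exist. Over all 32851 RefSeq windows of this length, 7.13% held at least 1 match. Among the 220 of 300 long genes with a window, 13 (5.91%) did, and among the 103 of them with their own reads 6 (5.83%) did. A match describes letters in this window and shows no binding.

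Total counts ran from 23270358 to 56795858 per library. The 300 genes held 3.20% to 4.01% of all counts, and the 142 with their own reads 0.609% to 0.997%, highest in WT doxorubicin b. The number of genes with any count was 28488 and 28606 in WT controls, 33629 and 34297 in WT doxorubicin, and 27926 to 33022 in the other libraries. Reads of Trp53 were fewer in p53 KO (39.8 to 95.5 CPM, counts scaled to a common library size after TMM scaling) than in WT (133 to 193 CPM). Duxf3, the copy of Dux in the annotation, was at 0 counts in all 3 usable Dux KO libraries and at 670 and 685 counts in WT doxorubicin. Of 16 mouse embryonic stem cell markers, 14 fell in WT after the drug, and their summed level went from 6195 and 6140 to 1379 and 1283 CPM. It was 5793 and 5655 against 3732 and 3168 CPM in p53 KO (1 rose, 9 fell), and 6031 against 2671 and 2417 CPM in Dux KO (0 rose, 12 fell). Of all genes tested, 29.0% were called higher and 23.4% lower in WT. These shares were 9.31% and 8.09% in p53 KO, and 14.5% and 11.9% in Dux KO. Of 11 tested fibroblast markers 8 rose and 2 fell in WT, with a summed level of 40.4 and 38.78 CPM under vehicle and of 151.8 and 164.3 CPM with doxorubicin. Of 11 trophectoderm markers 6 rose and 1 fell in WT, from a summed 146.3 and 146.8 to 247.4 and 273.1 CPM. Of 13 primitive endoderm markers 6 rose and 1 fell in WT, from a summed 392.1 and 372.2 to 447.3 and 492.1 CPM. Fibroblast markers summed to 55.31 and 29.03 CPM under vehicle and 76.58 and 47.78 with doxorubicin in p53 KO (1 of 11 rose, 0 fell), and to 36.27 against 72.73 and 91.26 in Dux KO (3 of 11 rose, 0 fell). Trophectoderm markers summed to 263.3 and 144.2 against 205.5 and 136.7 CPM in p53 KO (1 rose, 1 fell), and to 168.5 against 207.2 and 262.2 in Dux KO (2 rose, 1 fell). Primitive endoderm markers summed to 381.9 and 267.9 against 509.1 and 457.9 CPM in p53 KO (5 of 13 rose, 1 fell), and to 370.2 against 436.5 and 447.2 in Dux KO (4 rose, 1 fell). The 11 tested fibroblast markers had a WT median of 2.97, while Postn, Lum and Dcn were too low to be tested and Col3a1 stayed at or under 0.0748 CPM in the 4 WT libraries. The part of these lists in the results was not tested. In bulk RNA, fewer cells of a type and less RNA per cell cannot be told apart.

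In WT cells the longest genes split under doxorubicin, and the balance lay above that of other genes with enough counts. Of the 300 genes, 107 rose and 80 fell (35.7% and 26.7%), where 29.0% and 23.4% of all genes tested were called higher and lower. Adjusted p-values throughout are from edgeR's quasi-likelihood test with Benjamini-Hochberg adjustment over all genes tested, and a call is an adjusted p under 0.05. Over the genes meeting the count minimum the picture was the opposite: 2060 rose and 4215 fell of 10582. The median log2 fold change was 0.08 over the long genes, -0.28 over the genes meeting the count minimum and 0.13 over all genes tested. Among the 142 genes with their own reads, 57 rose and 31 fell, with a median of 0.25. Among the 111 with shared reads, 25 rose and 43 fell, with a median of -0.23. The zero line depends on scaling. With TMM factors from the genes meeting the count minimum, 131 rose and 52 fell, the median was 0.36 and the median of the genes meeting the minimum was -0.01. Without WT doxorubicin b, 73 rose and 69 fell, and the median was -0.08 against -0.36 for those genes.

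In p53 KO cells few of the longest genes rose and many fell. Of the 300 genes, 5 rose and 96 fell (1.67% and 32%), where 9.31% and 8.09% of all genes tested were called higher and lower. The median was -0.40, against -0.14 over the genes meeting the count minimum, of which 561 rose and 2002 fell. For the 142 genes with their own reads, 4 rose and 41 fell, and the median was -0.41. With the line number as a block, 20 of the 300 rose and 175 fell, with the same median. With TMM factors from the genes meeting the count minimum, 15 rose and 68 fell, and with both Dux KO controls in the fit 4 rose and 62 fell. The count of 5 was 3 without any 1 WT library, and 8 without p53 KO doxorubicin 1 or 2.

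In Dux KO cells 33 of the 300 genes rose and 92 fell (11% and 30.7%), where 14.5% and 11.9% of all genes tested were called higher and lower. The median was -0.37, against -0.19 over the genes meeting the count minimum, of which 12% rose and 23.1% fell. For the 142, 19 rose and 44 fell. This comparison rests on the lone control. Counts of the missing control could be recovered from its FPKM column, and 124 of the 142 genes were lower there than in control 1, with a median log2 difference of 0.53. With both controls the median of the 300 was -0.29 (36 rose, 94 fell), against -0.26 over the genes meeting the count minimum. With the recovered control alone the median of the 300 was -0.09, against -0.23 over those genes. The distance between long genes and the others thus depended on the control used. TMM factors from the genes meeting the count minimum gave 39 higher and 61 lower. Without Dux KO doxorubicin 1 these were 21 and 60, and without Dux KO doxorubicin 2 they were 22 and 51.

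**Figure D2:**
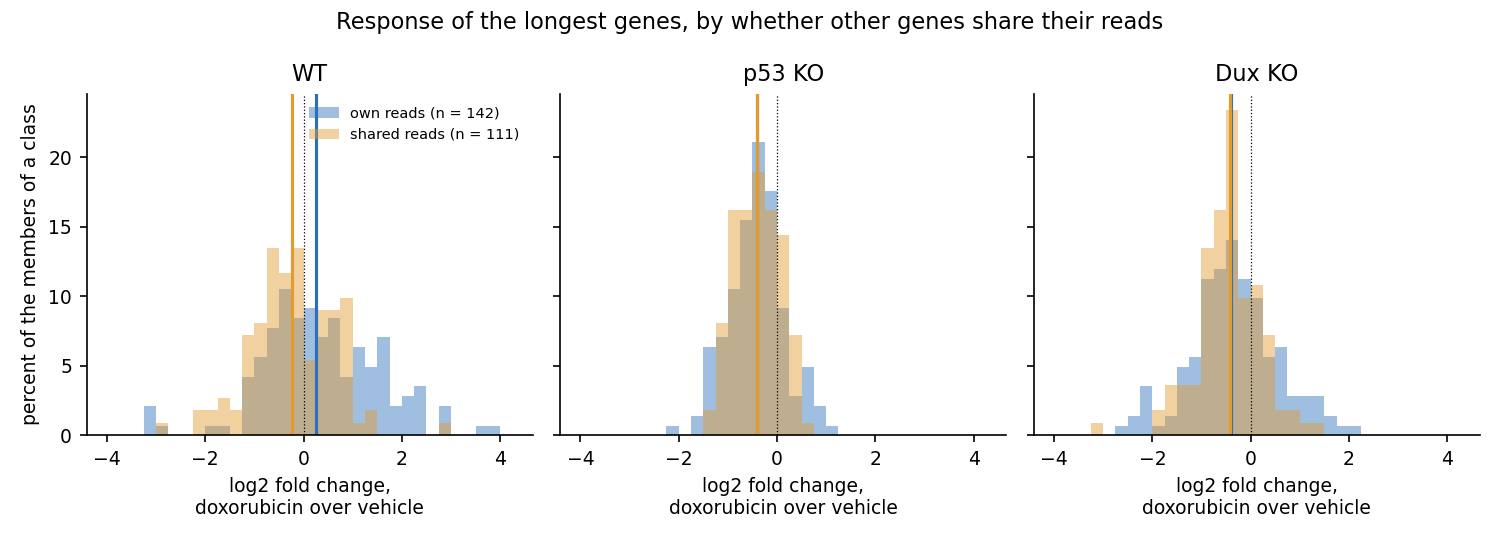
Percent of the genes of a class (vertical axis) by log2 fold change after doxorubicin over vehicle (horizontal axis, bins of 0.25) in WT, p53 KO and Dux KO, for the 142 genes with their own reads (blue) and the 111 with shared reads (orange). Vertical lines are class medians: in WT they stand apart at 0.25 and -0.23, and in p53 KO they fall together at -0.41.

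The difference in response was then tested directly, as knockout response minus WT response. For p53 KO, 13 of the 300 genes had a higher response and 102 a lower one (4.33% and 34%), where 9.90% and 10.3% of all genes tested did. Over the genes meeting the count minimum these shares were 14.3% and 12%. Of the 142, 5 were higher and 59 lower, with a median of -0.67. With the line block, 31 and 154 of the 300 were called. For Dux KO, 6 of the 300 were higher and 40 lower (2% and 13.3%), where 2.10% and 3.15% of all genes tested were. Over the genes meeting the count minimum these shares were 2.92% and 3.06%. With both Dux KO controls 5 of the 300 were higher and 30 lower. With the line block the Dux KO response is doxorubicin 1 against control 1 alone. The median difference from WT was then -0.37, against 0.13 over the genes meeting the count minimum. The 102 lower calls became 58, 62 and 59 without WT control a, WT control b and WT doxorubicin b. The 13 higher ones became 6 to 9 without a WT or a Dux KO drug library. For Dux KO, the 40 lower calls became 20 to 25 without WT control a or b, WT doxorubicin b or a Dux KO drug library, and 60 and 61 without p53 KO doxorubicin 1 and 2. The 6 higher ones became 0 or 1 without a WT or a Dux KO drug library, and 8 and 9 without p53 KO doxorubicin 1 and 2. These tests and the WT response share the WT libraries, so their sizes are not independent.

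**Figure D3:**
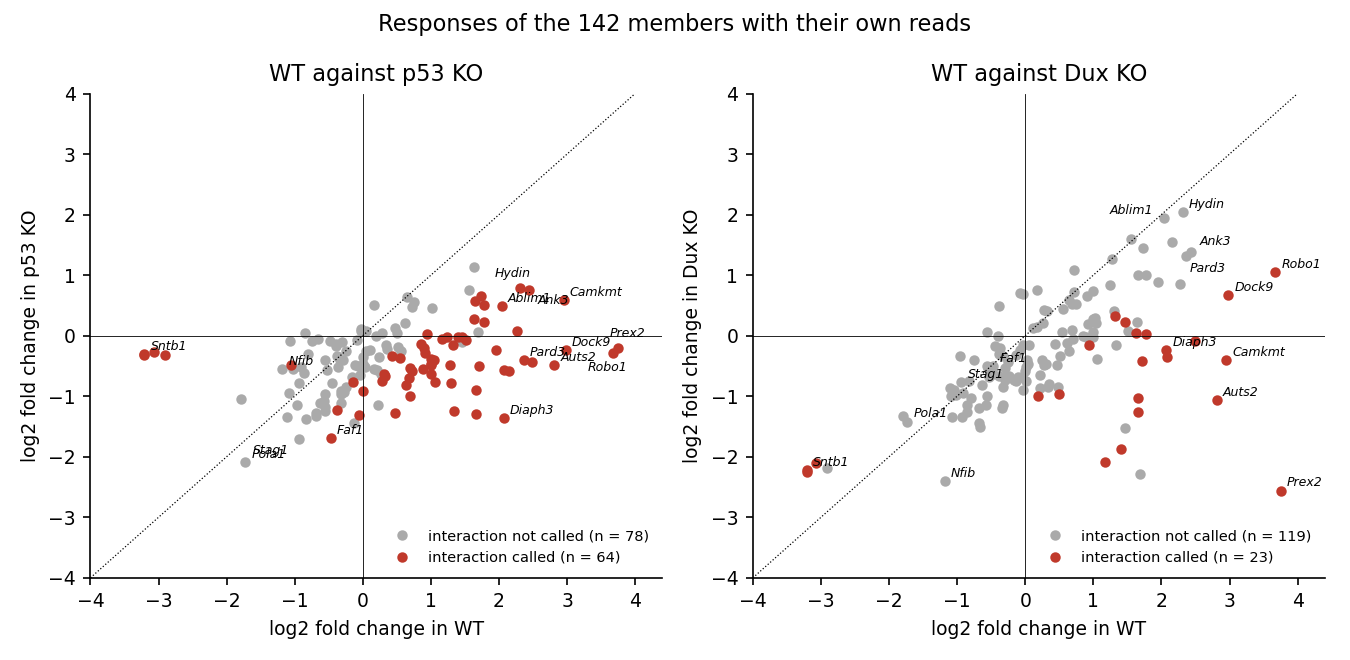
Log2 fold change after doxorubicin in p53 KO (left) and Dux KO (right), vertical axis, against that in WT, horizontal axis, for the 142 genes with their own reads. Red points are genes whose difference in response was called (64 for p53 KO, 23 for Dux KO), the dotted line marks equal response, and Robo1, Prex2 and Dock9 lie at the far right with p53 KO values near 0.

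The WT and p53 KO responses use separate controls and can be set against each other. Of the 57 genes with their own reads that rose in WT, 4 also rose in p53 KO, 8 fell and 45 were not called. Of the 31 that fell in WT, 16 fell in p53 KO and 15 were not called. Of the 57, 17 rose, 7 fell and 33 were not called in Dux KO, and of the 31, 21 fell and 10 were not called. Of all genes tested, 9.31% rose and 8.09% fell in p53 KO, and 14.5% and 11.9% in Dux KO. Among genes meeting the count minimum with their own reads, these were 5.23% and 19.3%, and 12.3% and 24.7%. The same overlap of calls was not counted for other genes, so it cannot be called particular to long ones.

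The response changed with span across all genes meeting the count minimum whose reads are their own. These 6249 genes were put in 10 bins of relative span, from a median of 0.868 kb to 161 kb. In WT the median log2 fold change climbed from -0.84 in the shortest bin to 0.07 in the longest. In p53 KO it was -0.47 in the shortest bin, -0.01 in the fifth at 20.4 kb and -0.37 in the longest. In Dux KO the same bins stood at -0.39, -0.12 and -0.28. Level per length ran the other way: median FPKM in WT control a went from 80.5 to 0.237 over the 10 bins. Within the 142 genes the levels can be split. The 48 with the lowest FPKM (0.014 to 0.061) had a WT median of 0.87, with 27 up and 6 down. The 47 with the highest (0.14 to 2.1) had a WT median of -0.13, with 12 up and 15 down. The split used WT control a, which is also a control in the WT fold change. A low value there raises that fold change by itself, so the WT medians cannot separate level from this effect. The p53 KO and Dux KO responses have other controls. For the lowest, middle and highest levels, p53 KO medians were -0.16, -0.44 and -0.56, and Dux KO medians -0.39, -0.16 and -0.52. By span, the WT medians of the genes among the 142 ranked 1 to 100, 101 to 200 and 201 to 300 were 0.49, 0.17 and 0.22, over 36, 51 and 55 genes. No test was made of either trend.

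**Figure D4:**
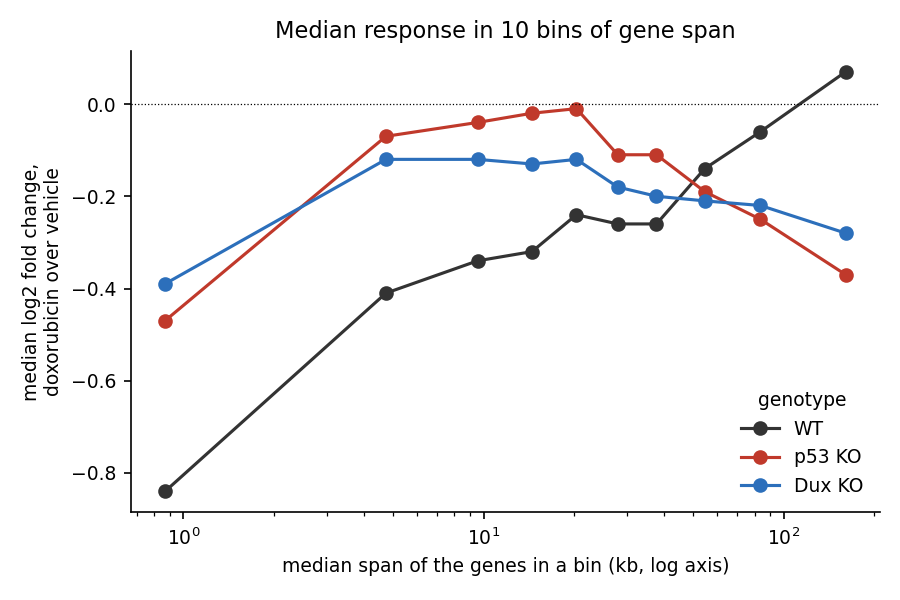
Median log2 fold change after doxorubicin (vertical axis) in 10 bins of 624 or 625 genes with their own reads, by the bin's median span in kb (horizontal axis, log scale), in WT, p53 KO and Dux KO. The WT line goes from -0.84 to 0.07 and crosses the other lines, which end at -0.37 and -0.28.

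The longest genes illustrate how far counts and genes can part. Gm20388 and Fgfr2, whose overlapping genes hold more counts than they do, stood at log2 0.05 and 0.01 in WT and were not called. Ptprd, a receptor phosphatase of synapses with 5.71% overlap, had 30.5 and 32.5 CPM in WT controls, 58.1 and 83.6 after the drug, 24.9 to 29.8 in p53 KO, and 44.2 against 11 and 9.83 in Dux KO. It rose in WT (log2 1.17, adjusted p = 0.00093) and fell in Dux KO (-2.09, adjusted p = 0.00036). Dmd, the dystrophin gene with 0.239% overlap, was lower after the drug in WT, p53 KO and Dux KO (log2 -0.53, -0.56 and -0.69) without passing the test. Its Dux KO value was 0.22 when the recovered control replaced control 1. With the line block the WT and p53 KO values of Dmd were -0.53 and -0.56 and were called, with adjusted p of 0.00027 and 0.00058. That of Dux KO was then -0.47, from doxorubicin 1 against control 1 alone. Macrod2, a mono-ADP-ribosylhydrolase gene with 20.2% overlap, rose in WT (0.84, adjusted p = 0.0027) and fell in Dux KO (-0.94, adjusted p = 0.0078). Cntnap2, Lrp1b and Pde4d fell in WT by 0.60, 1.05 and 0.87 on the log2 scale, with 46.9%, 85.4% and 97.5% overlap. Fhit, a fragile-site gene with 77.4% overlap, was at 0.35 in WT and not called. Some genes followed the line rather than the drug: Mid1 and Ppp1r9a were more than 2-fold higher in p53 KO line 1 than in line 2 under both treatments, and Gpc3 more than 2-fold lower. Ppp1r9a and Gpc3 were singled out after their values were seen.

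Guidance, adhesion and polarity genes held the second largest rise. Robo1, which encodes a Slit receptor of axon and cell guidance, spans 737.8 kb (chr16:72308306-73046095) with no overlapping gene. It had 18.7 and 19.9 CPM in WT controls and 215 and 274 CPM in WT doxorubicin, 20.7 and 15.4 against 16.8 and 12.9 in p53 KO, and 32.0 against 72.7 and 59.8 in Dux KO. Both drug-treated WT libraries lay above every other library, and the p53 KO groups overlapped neither with the drug-treated WT nor with Dux KO libraries. The log2 fold change was 3.67 (SE 0.22, adjusted p = 8.9e-06) in WT, -0.28 (SE 0.20, adjusted p = 0.36) in p53 KO and 1.05 (SE 0.25, adjusted p = 0.015) in Dux KO. The p53 KO response was lower than the WT response by 3.95 (SE 0.29, adjusted p = 0.00022). Without Dux KO doxorubicin 1 the Dux KO rise was 0.90 with an adjusted p of 0.07. Pard3, a scaffold of the Par polarity complex, had 49.2 and 45.2 CPM in WT controls and 244 and 240 after the drug, 49.3 and 36.1 against 33.8 and 30.7 in p53 KO, and 54.7 against 121 and 152 in Dux KO. It rose in WT by 2.36 and in Dux KO by 1.32. In p53 KO it stood at -0.40, which the line block called (-0.39, adjusted p = 0.011). Of the 18 adhesion genes, 9 rose and 5 fell in WT, 7 fell in p53 KO, and 5 rose and 7 fell in Dux KO. For these and the other role groups, the shares of all genes tested stand at 29.0% higher and 23.4% lower in WT. They stand at 8.09% lower in p53 KO, and 14.5% higher and 11.9% lower in Dux KO. Among the 300 long genes the same shares were 35.7% and 26.7% in WT, 32% in p53 KO, and 11% and 30.7% in Dux KO. No group was tested against either set of shares. Ncam1, an adhesion molecule gene with 62.9% overlap, fell in WT by 2.01.

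Regulators of small GTPases made up the largest role group, with 23 genes, of which 14 rose and 2 fell in WT, 5 fell in p53 KO, and 5 rose and 2 fell in Dux KO (29.0% and 23.4%, 8.09%, and 14.5% and 11.9% of all genes tested). Dock9, an exchange factor for Cdc42 over 255.8 kb with no overlapping gene, had 13.6 and 12.6 CPM in WT controls and 90.2 and 117 after the drug. It had 15.0 and 15.2 against 13.4 and 12.1 CPM in p53 KO, and 16.5 against 24.6 and 28.0 in Dux KO. The drug-treated WT libraries stood apart from all others, and Dux KO doxorubicin lay between them and the rest. Dock9 rose by 2.98 (SE 0.17, adjusted p = 8.3e-06) in WT and by 0.67 (SE 0.20, adjusted p = 0.038) in Dux KO, the latter not called when a WT control or a Dux KO drug library was left out (adjusted p of 0.065 to 0.16). Arhgap26, which encodes a GTPase-activating protein, rose by 2.58 in WT, with 13.9% overlap and a relative span 2.04 times its annotated span. Agap1, an Arf GTPase-activating gene with 11.2% overlap, rose in WT and Dux KO by 1.98 and 1.43 and fell in p53 KO by 0.57 (adjusted p = 0.037), a call lost with both Dux KO controls (-0.56, adjusted p = 0.26) and in 9 of the fits with 1 library left out (adjusted p of 0.05 to 0.1).

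Prex2, a Rac exchange factor that stood in no role list, had the largest WT rise of the 300. It had 13.2 and 13.2 CPM in WT controls, 153 and 202 after the drug, and 13 to 18.9 in all 4 p53 KO libraries. Dux KO went the other way, from 47.5 CPM in the control to 10 and 6.12 after the drug, so no drug-treated group of one genotype overlapped another. The log2 fold changes were 3.75 (SE 0.28, adjusted p = 1.7e-05) in WT, -0.20 (SE 0.26, adjusted p = 0.61) in p53 KO and -2.56 (SE 0.30, adjusted p = 0.00049) in Dux KO. The recovered Dux KO control 2 had 18.9 CPM against 46.7 for control 1, and with both the Dux KO fall was -2.06 (adjusted p = 0.0025).

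**Figure D5:**
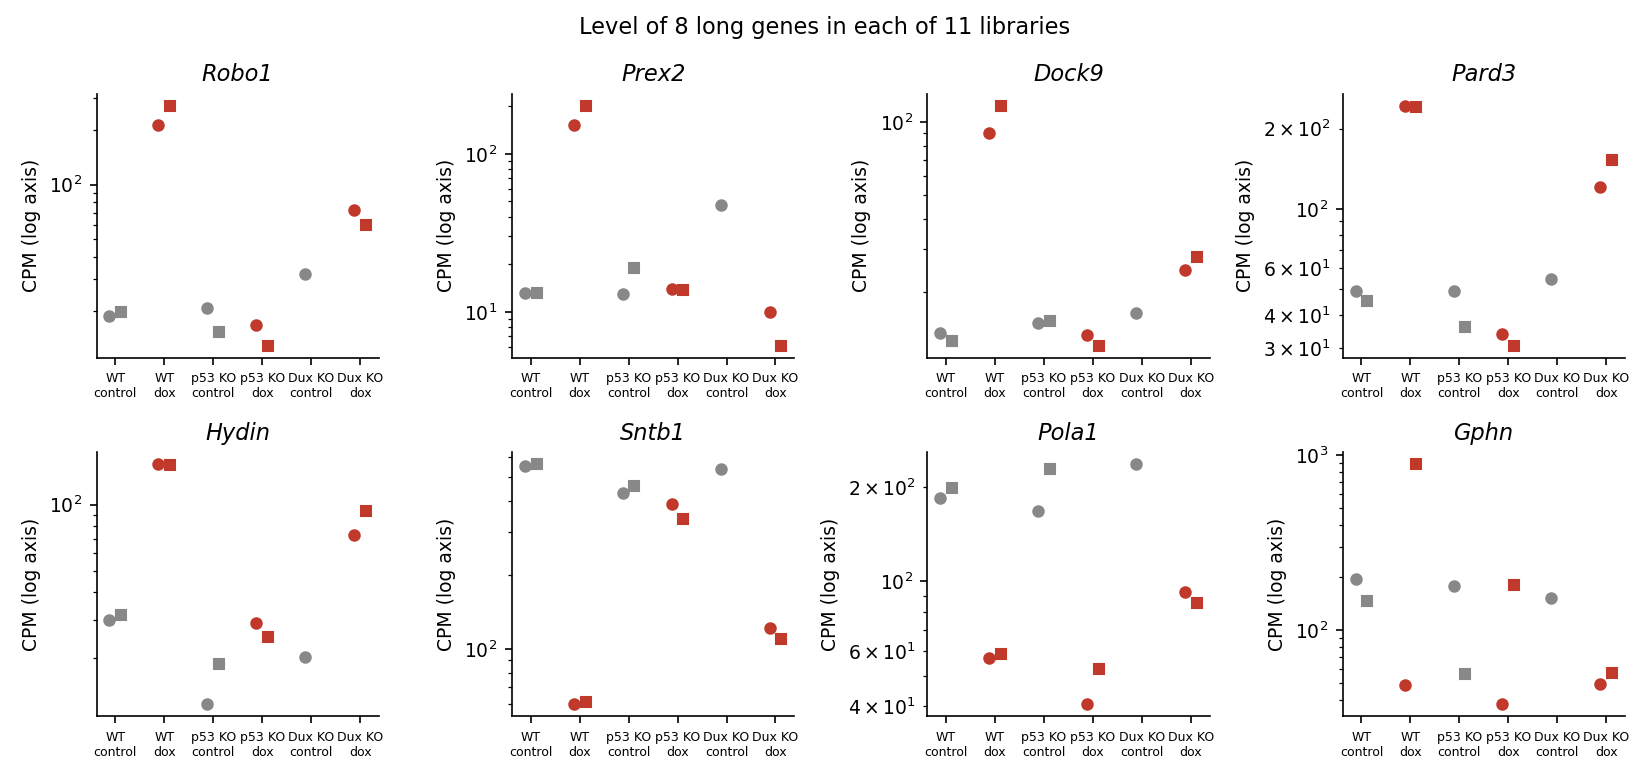
Level in CPM (vertical axes, log scale, not starting at 0) of 8 long genes with their own reads in 11 libraries, by group (horizontal axes). Grey marks are vehicle and red marks doxorubicin; circles are library a or 1 and squares library b or 2. Robo1, Prex2 and Dock9 are highest in both drug-treated WT libraries, Sntb1 is lowest there, Pola1 is low in all drug-treated libraries, and Gphn differs within groups.

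Of 15 cytoskeletal genes, 9 rose and the other 6 were not called in WT (29.0% of all genes tested rose), 4 fell in p53 KO (8.09% of all), and 2 rose and 2 fell in Dux KO (14.5% and 11.9% of all). Ank3, encoding ankyrin-G, which anchors membrane proteins to spectrin, had 12.1 and 13.2 CPM in WT controls and 63.9 and 73.7 after the drug, and 28.7 against 79.7 and 70.4 in Dux KO. It rose by 2.44 in WT and 1.39 in Dux KO, the latter not called without Dux KO doxorubicin 1 or 2 (adjusted p = 0.068 and 0.051), and in p53 KO stood at 0.76, called with the line block (adjusted p = 0.00021). Tanc2, a postsynaptic scaffold gene with 30.4% overlap, and Dst, the dystonin gene of cytoskeletal linkers with 13.1% overlap, rose in WT by 2.60 and 2.19. Dst stood at -0.57 in p53 KO, called with the line block (adjusted p = 0.0021), and at -0.03 in Dux KO, which became a called rise of 0.93 (adjusted p = 0.016) when the recovered control replaced control 1. Diaph3, a formin that builds actin filaments, had 55.2 and 54.1 CPM in WT controls and 199 and 261 after the drug, and went from 57.1 and 33.7 to 24.1 and 11.2 in p53 KO. It rose by 2.07 in WT and fell by 1.36 in p53 KO (adjusted p = 0.028). Among genes that rose in both WT and Dux KO were Hydin, of the ciliary axoneme, and Ablim1, an actin-binding LIM protein, both outside the list, and Specc1, a cytospin gene. Hydin had 30.0 and 31.5 against 153 and 151 CPM in WT, 12.4 and 18.9 against 29.1 and 24.9 in p53 KO, and 20.2 against 73.0 and 93.6 in Dux KO. It rose by 2.31, 0.79 and 2.04 in the 3 genotypes. The p53 KO call was lost in 6 of the fits with 1 library left out, for example without p53 KO control 1 (0.51, adjusted p = 0.11). Ablim1 rose by 2.04 in WT and 1.94 in Dux KO, and Specc1 by 1.56 and 1.60.

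Of 18 genes listed as kinases and phosphatases, 7 rose and 4 fell in WT (29.0% and 23.4% of all genes tested), 7 fell in p53 KO (8.09% of all), and 1 rose and 5 fell in Dux KO (14.5% and 11.9% of all). The WT changes of the largest size belonged to genes that are neither: Camkmt encodes a calmodulin-lysine methyltransferase, and Plcb4 a phospholipase C. Camkmt, with no overlapping gene, had 22.1 and 25 CPM in WT controls and 156 and 207 after the drug, 18.8 and 21.8 against 34.9 and 26.4 in p53 KO, and 27.5 against 21 and 20.8 in Dux KO. It rose by 2.95 (SE 0.20, adjusted p = 1.2e-05) in WT. Its values of 0.59 in p53 KO and -0.40 in Dux KO were not called, though the line block called the former (0.58, adjusted p = 0.014). The Dux KO value was 0.18 when the recovered control replaced control 1. Plcb4 rose by 2.15 in WT and 1.55 in Dux KO, and its p53 KO value of -0.58 was called with the line block (-0.59, adjusted p = 0.00049). Ppm1l, a protein phosphatase gene, rose by 1.78 in WT and stood at 0.22 and 0.03 in the knockouts.

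Of 9 chromatin genes 3 rose and 2 fell in WT, near the 29.0% and 23.4% of all genes tested, 3 fell in p53 KO (8.09% of all) and 4 fell in Dux KO (11.9% of all). Auts2, a neurodevelopmental gene of a Polycomb complex spanning 1106 kb, had 15.6 and 14.5 CPM in WT controls and 93.1 and 117 after the drug, 18.3 and 29.6 against 13 and 21.1 in p53 KO, and 41.1 against 21.2 and 18.0 in Dux KO. It rose by 2.81 in WT (SE 0.29, adjusted p = 8.4e-05), and its p53 KO value of -0.49 was called with the line block (adjusted p = 0.0092). Its Dux KO fall of -1.06 (adjusted p = 0.039) was lost without any 1 WT or Dux KO drug library (adjusted p of 0.06 to 0.17) and turned to 0.67 (adjusted p = 0.18) when the recovered control replaced control 1. Stag1, a cohesin subunit gene, had 145 and 155 CPM in WT controls and 74.9 and 81.1 after the drug, and 145 and 158 against 36.7 and 55.5 in p53 KO. It fell in WT, p53 KO and Dux KO by 0.94, 1.71 and 0.77, the last not called without Dux KO doxorubicin 1 or 2 (adjusted p = 0.097 and 0.099) or WT doxorubicin b (adjusted p = 0.054). Phf21a, a histone-binding PHD finger gene, fell by 0.91 in WT and 0.95 in Dux KO and stood at -0.52 in p53 KO, called with the line block (-0.53, adjusted p = 0.0075) and without p53 KO doxorubicin 2 (-0.74, adjusted p = 0.018). Its Dux KO fall was not called with the recovered control in place of control 1 (-0.41, adjusted p = 0.15). Of 11 transcription factor genes 3 rose and 4 fell in WT (29.0% and 23.4% of all genes tested), 3 fell in p53 KO (8.09% of all), and 1 rose and 3 fell in Dux KO (14.5% and 11.9% of all). Zfhx3, a zinc finger homeobox gene, rose by 2.27 in WT, while Nfib and Tcf4, a nuclear factor I and a basic helix-loop-helix gene, fell by 1.18 and 1.07 in WT and stood at -2.40 and -1.34 in Dux KO, both called. The Dux KO fall of Tcf4 was not called with both controls (-0.89, adjusted p = 0.062), whereas Zfhx3, at 0.86 in Dux KO, then was (1.22, adjusted p = 0.033). The line block called Nfib in p53 KO (-0.57, adjusted p = 0.014). Zfhx3 in Dux KO was then at 0.65, from doxorubicin 1 against control 1 alone.

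Of 7 genes of DNA replication and repair, 3 rose and 1 fell in WT (29.0% and 23.4% of all genes tested), 4 fell in p53 KO (8.09% of all), and 1 rose and 2 fell in Dux KO (14.5% and 11.9% of all). Rad51b, a gene of homologous recombination with no overlapping gene, had 30.8 and 28.4 CPM in WT controls and 105 and 146 after the drug, 31.2 and 27.7 against 18.7 and 21.1 in p53 KO, and 37.3 against 31.8 and 26.7 in Dux KO. It rose by 2.08 in WT (SE 0.19, adjusted p = 3.7e-05), stood at -0.57 in p53 KO (called with the line block, adjusted p = 0.011) and at -0.35 in Dux KO. The Dux KO value was 0.24 when the recovered control replaced control 1. Pola1, the catalytic subunit of DNA polymerase alpha on the X chromosome, fell in every genotype, by 1.73, 2.09 and 1.42 in WT, p53 KO and Dux KO. Its levels were 184 and 199 against 56.8 and 58.6 CPM in WT, 168 and 228 against 40.6 and 52.7 in p53 KO, and 237 against 92.4 and 85.2 in Dux KO, so no drug-treated library overlapped a vehicle library. Faf1, a ubiquitin-binding adaptor gene, fell most in p53 KO: 168 and 158 against 48.2 and 52.8 CPM there, and 135 and 146 against 95.4 and 108 in WT. The p53 KO response of Faf1 was lower than that of WT by 1.23 (SE 0.17, adjusted p = 0.0017).

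Of 21 genes listed at common fragile sites, 7 rose and 5 fell in WT, near the 29.0% and 23.4% of all genes tested, 9 fell in p53 KO (8.09% of all), and 1 rose and 7 fell in Dux KO (14.5% and 11.9% of all). Besides Auts2 they include Ptprg, a receptor phosphatase gene, which rose in WT by 1.34 and fell in p53 KO by 1.25 (adjusted p = 0.021). The WT rise was not called without WT doxorubicin b (1.04, adjusted p = 0.054), nor the p53 KO fall without p53 KO control 2 (-0.88, adjusted p = 0.085) or doxorubicin 1 (-0.89, adjusted p = 0.053), or with both Dux KO controls (-1.24, adjusted p = 0.053). Mad1l1, a spindle checkpoint gene with 10.5% overlap, rose in WT and Dux KO by 1.18 and 1.01 and fell in p53 KO by 0.63.

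Of 21 membrane trafficking genes, 7 rose and 2 fell in WT (29.0% and 23.4% of all genes tested), 11 fell in p53 KO (8.09% of all), and 1 rose and 6 fell in Dux KO (14.5% and 11.9% of all). Bbs9, a BBSome subunit gene of ciliary transport, had 27.9 and 25.9 CPM in WT controls and 139 and 164 after the drug, 19.5 and 22.8 against 17.1 and 14.1 in p53 KO, and 34.8 against 33.6 and 32.2 in Dux KO. It rose in WT by 2.49 and its values in the knockouts were -0.44 (called with the line block, adjusted p = 0.021) and -0.08. Arl15, a small GTPase gene, rose in WT by 1.66 and fell in p53 KO by 1.30. In Dux KO it fell by 1.03, a call lost with both controls (-0.66, adjusted p = 0.071). Erc2, a presynaptic scaffold gene, rose in WT by 1.40 and fell in Dux KO by 1.87. Exoc4, an exocyst subunit gene, fell in p53 KO by 1.44 (adjusted p = 0.023), and this was not called without p53 KO control 1 (-0.94, adjusted p = 0.093) or p53 KO doxorubicin 2 (-1.15, adjusted p = 0.074).

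Of 22 metabolic enzyme genes, 4 rose and 12 fell in WT (29.0% and 23.4% of all genes tested), 13 fell in p53 KO (8.09% of all) and 10 fell in Dux KO (11.9% of all). Fto, an RNA demethylase gene with 10.6% overlap, and Cers6, a ceramide synthase gene, rose in WT by 1.84 and 1.46. Gphn, the gephyrin gene of inhibitory synapses and molybdenum cofactor synthesis, varied most within groups: 195 and 147 CPM in WT controls, 48.6 and 891 in WT doxorubicin, 179 and 56.1 against 37.7 and 181 in p53 KO, and 152 against 49.1 and 56.9 in Dux KO. It was called in none of the 3 responses (adjusted p = 0.29, 0.97 and 0.43). Of 6 RNA-binding genes 3 fell in p53 KO (8.09% of all) and 3 in Dux KO (11.9% of all). In WT 2 rose and 2 fell (29.0% and 23.4% of all genes tested), with Celf2, a splicing regulator gene with 22.4% overlap, up by 1.43 (not called without WT control a or b, adjusted p = 0.05 and 0.054, or WT doxorubicin b, 0.79, adjusted p = 0.11) and Dis3l2, an exoribonuclease gene with shared reads, among them. Of 4 ubiquitin genes 0 changed in p53 KO, 1 fell in Dux KO and 1 rose in WT: Nedd4l, a ubiquitin ligase gene, by 0.69 with an adjusted p of 0.043, which leaving out any of the 4 WT libraries raised to between 0.07 and 0.26. Otud7a, a deubiquitinase gene with 94.5% overlap, stood at 0.31 in WT and -0.36 in p53 KO, both called with the line block (adjusted p = 0.011 and 0.011), and fell in Dux KO by 0.59, which was not called without Dux KO doxorubicin 2 (-0.55, adjusted p = 0.085) or with both controls (-0.38, adjusted p = 0.11). Mid1, a ubiquitin ligase gene with 50.2% overlap, stood at -0.35, -0.15 and -0.84 and was not called. The line block called Mid1 in WT (-0.35, adjusted p = 0.031). In Dux KO it was then at -0.82, from doxorubicin 1 against control 1 alone. Of the 300, 148 stood in no role list, and 0 of 64 listed p53 target genes and 0 of 63 elongation genes were among them.

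Among the largest falls in WT were those of genes of different function whose levels kept a nearly fixed ratio to Sntb1. Sntb1, a syntrophin of the dystrophin complex, had 553 and 564 CPM in WT controls, 59.8 and 60.9 after the drug, 432 and 460 against 387 and 336 in p53 KO, and 540 against 122 and 110 in Dux KO. Adarb2, of the RNA-editing deaminase family, had 507 and 519, 54.1 and 56.8, 403 and 421 against 355 and 307, and 504 against 113 and 98.4 CPM in the same libraries. Both fell in WT by 3.21 and in Dux KO by 2.22 and 2.25, and stood at -0.30 and -0.32 in p53 KO. The line block called the value of Adarb2 in p53 KO (adjusted p = 0.024). They lie on chromosomes 15 and 13 and have 0% and 1.15% overlap, yet the SD of their log2 ratio over 11 libraries was 0.0195. A830018L16Rik on chromosome 1 (SD 0.106 against Sntb1) and Slc4a4, a sodium bicarbonate cotransporter gene on chromosome 5 (0.164), fell in WT by 3.07 and 2.91. The closest profiles outside the 300 were those of Kbtbd12 and Lhfp, on chromosomes 6 and 3, with SDs of 0.0699 and 0.0962. These pairs were picked after their values were seen. Overlap was judged by position alone, so reads counted for more than 1 of these distant genes would go unseen. Their values are uncertain, and the cause of the nearly fixed ratios was not tested. Ccdc7a fell in WT by 2.83, and counts of overlapping Gm3952 equalled 99.2% of its own.

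Other genes named by size of change add to the picture per genotype. In p53 KO, Frmd4b, a FERM-domain gene, rose by 1.13 (adjusted p = 0.017), with 23.3 and 17.2 against 52.4 and 36.0 CPM, and this was not called without p53 KO control 2 (0.92, adjusted p = 0.072) or doxorubicin 1 (0.83, adjusted p = 0.052). Ttn, the titin gene with 29.3% overlap, rose by 1.21 there and fell in Dux KO by 0.99. Syne2, a nesprin of the nuclear envelope, rose in WT, p53 KO and Dux KO by 1.73, 0.66 and 1.45, the p53 KO call being lost without p53 KO control 2 (0.60, adjusted p = 0.051). Fry, a microtubule-associated gene, rose in p53 KO by 0.47 (adjusted p = 0.042), which was not called in 8 of the fits with 1 library left out, such as without p53 KO control 2 (0.36, adjusted p = 0.15). Iqcm, with counts of overlapping Gm7901 equal to 97.5% of its own, fell in p53 KO and Dux KO (log2 -1.47 and -3.16). In Dux KO, Ralgps1, a Ral exchange factor gene with 34.6% overlap, rose by 1.80, and Tenm4, a teneurin gene with 49.9% overlap, fell by 2.44. Sox2ot, which overlaps Sox2, had a higher response in Dux KO than in WT by 1.64 (adjusted p = 0.027), a call lost when any 1 of the 4 WT libraries or of the 2 Dux KO doxorubicin libraries was left out (adjusted p of 0.074 to 0.11).

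Under vehicle p53 KO differed little from WT in these genes. Against WT control, 0 of the 300 were called higher and 4 lower in p53 KO, where 0.140% and 0.747% of all genes tested were. At an unadjusted p under 0.05, 19 were higher and 33 lower, and DESeq2 called 3 and 7. Zfp536, a zinc finger repressor gene, had 31.9 and 32.8 CPM in WT and 10.8 and 13.1 in p53 KO (log2 -1.44, adjusted p = 0.0095), a call lost without WT control a or b (adjusted p = 0.10 and 0.11). Btbd11 had 41.8 and 39.7 against 17.7 and 21.8 CPM (log2 -1.05, adjusted p = 0.015), and Ctif and Cacnb4, with 40.9% and 93.6% overlap, were at -0.96 and -0.84, the latter not called with both Dux KO controls (-0.85, adjusted p = 0.20). Leaving out 1 library gave 0 lower genes without WT control a or b, 1 without WT doxorubicin a or b or p53 KO control 1, and 6 without p53 KO doxorubicin 1 or 2. With the line block 22 were higher and 35 lower, but the block takes the difference between lines out of the spread.

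In Dux KO control against WT control, 13 were called higher and 0 lower (4.33% and 0%), where 0.656% and 0.346% of all genes tested were. The median log2 difference was 0.28 with the lone control, against 0.01 over the genes meeting the count minimum. With both Dux KO controls these medians were 0.19 and 0.05. At an unadjusted p under 0.05, 90 were higher and 12 lower, and DESeq2 called 47 and 5. Prex2 (log2 1.85), Rarb (1.76, with overlapping Top2b at 263% of its counts), Dennd1a (1.38), Rims2 (1.09) and Btbd9 (1.06) had the largest differences, with adjusted p of 0.025 to 0.045. Dennd1a encodes a Rab35 exchange factor and Rims2 a presynaptic protein. With both Dux KO controls, Btbd9 was called (1.29, adjusted p = 0.017), while Prex2 (1.34, adjusted p = 0.12), Dennd1a (0.90, adjusted p = 0.20) and Rims2 (0.72, adjusted p = 0.19) were not. Leaving out any WT or Dux KO doxorubicin library took the 13 calls to 0, and leaving out a p53 KO library raised them to 29 to 43. With the line block the median difference was 0.23, with control 1 shifted by the line difference seen under the drug.

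Small genes lying in introns of the long genes, overlapping no other gene, gave little to read along the span. There were 131 in the first part of a host's span up to its midpoint and 222 in the last part, and 124 of all of them are processed pseudogenes. Their WT medians were -0.32 and 0.39, and -0.52 and -0.24 where a mean of at least 10 counts per library was required. In p53 KO the latter pair was -0.26 and -0.18. No difference along the span was tested.

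Of 62 tested genes of transcript elongation and topoisomerases, 20 rose and 14 fell in WT, near the 29.0% and 23.4% of all genes tested. In p53 KO 9 rose and 10 fell (9.31% and 8.09% of all), and in Dux KO 7 rose and 12 fell (14.5% and 11.9% of all). The medians were 0.00, -0.07 and -0.16. Top2a, the topoisomerase II of dividing cells, fell by 1.26, 0.50 and 0.61 in WT, p53 KO and Dux KO. Top2b, its widely expressed counterpart, stood at 0.37, -0.43 and -0.16 and was not called. Top1 was not called in WT (0.16) and fell in p53 KO by 0.68 (adjusted p = 0.019). Nelfa, a subunit of the negative elongation factor, rose in WT by 3.12, and Hexim1, an inhibitor of the elongation kinase P-TEFb, by 1.73. Top1mt, Polr2a and Ctr9, encoding the mitochondrial topoisomerase, the largest subunit of RNA polymerase II and a PAF1 complex subunit, rose in WT by 1.66, 1.65 and 1.62.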

How the data were processed

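Poly(A) RNA was sequenced from 12 libraries in 6 groups of 2, named as the labels give them; the labels call the duplicates biological. The submitters' processing notes name TopHat2, DESeq, DESeq2 and mm10, while the counter, annotation, strand setting and all versions are not given in the sources used here. The values used were of these kinds: raw counts per gene as deposited by the authors, and FPKM as deposited by the authors, which served for span, level per length and recovered counts. A further 6 FPKM columns hold the authors' group averages and were not used.

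The count column of Dux KO control 2 equalled that of Dux KO doxorubicin 1 in 54532 of 54532 rows and was left out. Its counts were recovered as an alternative from its FPKM (total 55248885), where 100% of 354 low values lay within 0.15 of a whole read. The 11 libraries, with 23270358 to 56795858 counts, were fitted by group means in edgeR 4.0.16 (R 4.3.3) with its quasi-likelihood test and 5 residual degrees of freedom, after TMM scaling and a low-count filter (filterByExpr, minimum count 10), and p-values were adjusted by Benjamini-Hochberg over 28643 genes. Calls take an adjusted p under 0.05. Of the members' counts 36% to 43.7% were odd numbers, against 26.3% to 31.7% for the genes meeting the count minimum, so counts are not single independent reads. Alternatives were DESeq2 1.42.0, limma 3.58.1 on log2(FPKM + 1) and log2(FPKM + 0.1), other scaling, filters and choices of members, each library left out, and the line number as a block. The block takes the line difference out of the spread, also in tests of a knockout against WT. It leaves no spread within Dux KO, whose response is then doxorubicin 1 against control 1 with spread from the other groups. Same-numbered knockout libraries are the same line, so numbers pair them. Over the 10582 genes meeting the count minimum, the line difference correlated between treatments at r = 0.77 in p53 KO. In Dux KO, with the recovered control, it was 0.08. Over the 300 members r was 0.48 in p53 KO and 0.1 in Dux KO. WT columns carry no number and were not paired.

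On simulated counts for 26582 genes in the WT comparison, 36.6% of changes of log2 size 1, 62.6% of size 2 and 0.0227% of unchanged genes were called. Overlap came from GENCODE M21 and promoters from RefSeq (GRCm38.p6). The members and gene lists were chosen with earlier results of these data known, and overlap classes after the data were seen. Named genes are the 10 longest, the 5 largest called rises and falls per comparison, up to 3 per role list by size of the WT change, those at the edge of the choice, 5 elongation genes by size of the WT change with Top1, Top2a and Top2b, and Trp53 and Duxf3. Other names were chosen after their values were seen. A gene that the rule names is not reported here.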

Additional observations from a re-analysis of the deposited data

Results flagged for a closer look

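Named genes were listed here when the test of the difference in response between a knockout and WT passed the threshold (edgeR, interaction term), and the values are log2 knockout response minus WT response. For p53 KO, the response was higher for Sntb1 (2.91), Adarb2 (2.89), A830018L16Rik (2.80), Slc4a4 (2.59) and Ccdc7a (2.48). It was lower for Prex2 (-3.96), Robo1 (-3.95), Diaph3 (-3.43), Auts2 (-3.30) and Dock9 (-3.23). For Dux KO, whose control is 1 library, the response was higher for Sox2ot (1.64), Ccdc7a (1.04), Sntb1 (0.99), A830018L16Rik (0.97) and Adarb2 (0.96), and lower for Prex2 (-6.31), Auts2 (-3.87), Camkmt (-3.34), Erc2 (-3.28) and Ptprd (-3.25). Counts of Gm3952 and Sox2 equal 99.2% and 80.2% of those of Ccdc7a and Sox2ot. Levels of Adarb2, A830018L16Rik and Slc4a4 kept a nearly fixed ratio to Sntb1, and the values of all of them are uncertain. The 5 higher Dux KO differences each lost their call when 1 of the 4 WT or 2 Dux KO doxorubicin libraries was left out, with any of the 6 for 4 genes and with any but Dux KO doxorubicin 2 for Ccdc7a. There the adjusted p was 0.074 to 0.11 for Sox2ot, 0.062 to 0.096 for Ccdc7a, 0.055 to 0.093 for Sntb1, 0.054 to 0.12 for A830018L16Rik and 0.058 to 0.11 for Adarb2.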

How the results depend on the processing

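Values are percent of members called, higher then lower, unless named otherwise. The cause of a shift was not tested. Dux KO results with the line block take their spread from the other groups, since the block leaves none within Dux KO. With the line number as a block, p53 KO doxorubicin gave 6.67% and 58.3%, the p53 KO difference in response 10.3% and 51.3%, that of Dux KO 7.33% and 34.3%, p53 KO against WT control 7.33% and 11.7%, and Dux KO against WT control 27.3% and 3.33%. DESeq2 gave 22.3% lower for the Dux KO difference, 1.0% and 2.33% for p53 KO against WT control, and 15.7% and 1.67% for Dux KO against WT control. RLE scaling gave 2.67% higher for the p53 KO difference. TMM on the count-minimum genes gave 17.3% lower in WT, 5.0% higher in p53 KO and 20.3% lower in Dux KO. Only 21 members passed the FPKM filter in limma. With either pseudocount WT was 4.76% and 47.6%, p53 KO 0.0% and 19.0%, the p53 KO difference 23.8% and 9.52%, Dux KO 0.0% higher, p53 KO against WT control 0.0% lower and Dux KO against WT control 0.0% higher; the Dux KO difference was 4.76% lower, and 9.52% higher with 0.1 or 4.76% with 1. Without that filter, limma gave 7.33% lower in p53 KO, 9.33% lower in Dux KO, 21.7% lower for the p53 KO difference, 3.67% higher for that of Dux KO and 0.0% lower for p53 KO against WT control. With both Dux KO controls, p53 KO was 20.7% lower and Dux KO against WT control 0.333% lower. With the recovered one in place of control 1, Dux KO was 16.7% higher, Dux KO against WT control 7.0% and 0.667%, and Auts2 and Dst turned to log2 0.67 and 0.93 in Dux KO. Among the 100 longest, 0.0% rose in p53 KO and 0.0% were lower against WT control. A count minimum of 50 gave 8.67% higher in p53 KO, and of 500 gave 0.333% lower against WT control. Members with no overlapping tested gene gave 18.3% higher in Dux KO, 4.23% higher in p53 KO and 2.82% lower in p53 KO against WT control. Those with their own reads gave 2.82% higher in p53 KO. Those with shared reads gave 22.5% higher in WT, 0.0% in p53 KO and 4.5% in Dux KO, 18.9% and 7.21% lower for the p53 KO and Dux KO differences, and 2.7% higher for Dux KO against WT control. The median log2 fold change of the longest bin minus that of all genes meeting the count minimum was 0.39 in WT and -0.24 in p53 KO with 20 bins, -0.15 in p53 KO and -0.04 in Dux KO with 5, and 0.35 in WT for genes with their own reads. Intronic genes with a mean of 10 counts stood at -0.52 and -0.24 in WT, -0.26 and -0.18 in p53 KO, and -0.26 in Dux KO for the last part of the span.

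With 1 library left out, WT was 24.3% to 37.7% higher and 19.7% to 29.0% lower, p53 KO 1.0% to 2.67% and 24.7% to 35.3%, and Dux KO 7.0% to 11.7% and 17.0% to 36.3%. The p53 KO difference was 2.0% to 6.0% and 19.3% to 36.3%, and that of Dux KO 0.0% to 3.0% and 6.67% to 20.3%. Against WT control, p53 KO was 0.0% to 0.333% and 0.0% to 2.0%, and Dux KO 0.0% to 14.3% and 0.0% to 0.667%. The number of libraries per group, 2 at most and 1 for Dux KO control, limit all of these values.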
